A study of Homo sapiens with 9 samples.

Results

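Matrix metalloproteinases (MMPs) are zinc-dependent enzymes that cut proteins of the extracellular matrix, and the tissue inhibitors of metalloproteinases (TIMPs) bind and block them. The genes described here are the collagenases MMP1 and MMP13, the stromelysins MMP3 and MMP10, the gelatinase MMP9, the membrane-bound MMP14, epilysin (MMP28), and the inhibitors TIMP1, TIMP2 and TIMP3. They were taken by gene symbol as the members of this enzyme and inhibitor system to be described, and they make up 10 of the 16199 genes listed in at least 1 library. All 10 were listed in at least 1 library, and 9 passed the filter on low counts, the exception being MMP3.

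Most MMPs are secreted as inactive precursors that other proteases activate, so that a transcript level gives the supply of precursor and not the enzyme activity. In wounded epithelium, keratinocytes at the edge are known to make MMP1 where they touch dermal collagen, and MMP10 and MMP9 as they migrate. EGF receptor signalling is a classical inducer of MMP genes, many of which have binding sites for AP-1 and ETS factors in their promoters.

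RNA-seq was performed on HaCaT cells, an immortalized human keratinocyte line labelled as wild type, in 3 groups of 3 libraries. Confluent cells were kept in serum-free medium alone (untreated), or in serum-free medium with 10 nM epidermal growth factor (EGF) or 1 µM bleogen pB1 for 24 h. Bleogen pB1 is a small disulfide-rich plant protein that acts as an agonist of the EGF receptor, and the study asked which transcripts it shares with EGF. The doses of the 2 agonists differed, and a single line, a single dose of each and a single time were measured.

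The expected counts assigned to genes summed to between 20288417 and 21320994 per library, so that 3 counts corresponded to 0.139 to 0.151 CPM, the count scaled for the TMM-adjusted library size, a limit that covers counting error only. The libraries carried all 9 keratinocyte markers examined, with a summed level of 14142 to 15771 CPM in untreated, 11527 to 11885 CPM after EGF and 14448 to 17307 CPM after bleogen pB1. These markers did not move together after EGF, where 5 of the 9 had a positive and 4 a negative log2 fold change against untreated. KRT5 went from a mean of 7811 to 3604 CPM, and KRT14 from 1578 to 2908 CPM. The 7 fibroblast markers summed to at most 1.38 CPM and the 4 endothelial markers to at most 1.40 CPM in any library. The 5 leukocyte and macrophage markers summed to 13.2 to 14.5 CPM in untreated, 22.7 to 23.2 CPM after EGF and 12.7 to 12.9 CPM after bleogen pB1, most of it from CD68, a lysosomal gene that epithelial cells also express, whereas PTPRC stayed at 0 to 0.29 CPM. No marker of these lists was at 0 in every library. The keratinocyte, endothelial and leukocyte sums of the EGF-treated libraries did not overlap those of the others, and their part in the results below was not tested. In RNA from a whole culture, fewer cells that express a gene and less RNA per cell cannot be told apart.

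The promoter sequences of 2 members are shown first because these genes moved in opposite directions under EGF and both carry letters of the AP-1 type. A promoter was taken from RefSeq (GRCh38.p14) for 4 of the 10 members, namely MMP10, MMP14, TIMP1 and TIMP3, as the 250 bases before the start annotated there. For MMP10 the window is chr11:102780629-102780878 on the minus strand, and for TIMP1 it is chrX:47582186-47582435 on the plus strand. Both are written 5′ to 3′ on the strand of the gene, with motif matches in capitals.
MMP10: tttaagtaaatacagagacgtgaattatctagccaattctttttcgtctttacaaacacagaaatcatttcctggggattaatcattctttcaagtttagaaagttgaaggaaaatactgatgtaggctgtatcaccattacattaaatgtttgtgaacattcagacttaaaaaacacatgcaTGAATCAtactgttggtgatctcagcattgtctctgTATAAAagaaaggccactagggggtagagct
TIMP1: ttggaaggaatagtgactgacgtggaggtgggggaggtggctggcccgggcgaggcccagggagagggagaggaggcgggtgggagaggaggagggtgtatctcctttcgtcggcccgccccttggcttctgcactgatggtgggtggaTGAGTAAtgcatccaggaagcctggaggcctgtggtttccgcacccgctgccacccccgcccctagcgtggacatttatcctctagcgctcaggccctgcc

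The letters searched on both strands were TGANTCA (AP-1), TGAGTAA (an AP-1-like variant), TATAAA (the letters of a TATA box) and GGAA (the core of ETS sites), and they were chosen with the sequences in view. In MMP10 a TGANTCA match began 67 bases before the start and a TATAAA match 31 bases before it. In TIMP1 a TGAGTAA match began 101 bases before the start. The windows of MMP14 and TIMP3 held none of these 3 motifs. The GGAA core is not capitalized and was found 2 times in MMP10, 4 times in MMP14, 4 times in TIMP1 and 1 time in TIMP3. Of 27305 promoter windows of the same length, 6.60% held TGANTCA, 2.25% TGAGTAA, 11.1% TATAAA and 92.8% GGAA. A match describes the letters only and does not show that a factor binds there.

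In untreated cells the inhibitor TIMP1 and the membrane-bound MMP14 were the most abundant transcripts of the 10. Levels are compared between genes as FPKM, which is scaled for gene length and depth. TIMP1 stood at 140 ± 14.5 FPKM (SD, n = 3 for this and all other values of a group), followed by MMP14 at 77.1 ± 2.94, MMP28 at 36.5 ± 0.636, MMP13 at 33.1 ± 1.95 and TIMP2 at 22.1 ± 0.960 FPKM. The other transcripts were lower, with MMP10 at 6.93 ± 0.730, MMP1 at 3.44 ± 0.345, TIMP3 at 0.780 ± 0.114 and MMP9 at 0.360 ± 0.125 FPKM. MMP3 was listed with no counts. No 2 neighbours in this order overlapped in their range over the untreated libraries.

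The order changed after EGF, mainly through the collagenases. MMP1 moved from the 7th place to the 3rd at 26.9 ± 4.25 FPKM, while MMP13 moved from the 4th to the 6th at 8.99 ± 2.02 FPKM. MMP28 at 19.8 ± 1.63 and TIMP2 at 18.1 ± 1.49 FPKM could not be placed in order, since their ranges overlapped. After bleogen pB1, MMP13 at 37.9 ± 2.77 FPKM stood above MMP28 at 31.8 ± 1.24 FPKM, the reverse of the untreated order, and TIMP3 and MMP9 overlapped.

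EGF changed most of these genes, raising some and lowering others. A gene was called when its adjusted p in the edgeR quasi-likelihood test was at most 0.05 and its log2 fold change was at least 0.5 in size. Of the 9 genes tested, 7 were called, 3 of them higher (MMP1, MMP9 and TIMP1) and 4 lower (MMP10, MMP13, MMP28 and TIMP3). Over all 12394 genes tested 36.9% were called, 15.1% higher and 21.8% lower, which makes 1875 higher and 2703 lower, or 1396 higher and 3221 lower with upper-quartile factors. The median size of the log2 fold change was 0.96 over the 9 genes and 0.39 over all genes tested. The genes were chosen with earlier results of these data known. The values over all genes, here and below, are thus given for description and do not test whether the members respond more.

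Bleogen pB1 at 1 µM changed fewer of them. It raised 2 of the 9 genes, MMP1 and MMP10, and lowered 0 (edgeR, with 2 lower at an unadjusted p under 0.05 and 0 called lower by DESeq2 or limma), against 1.48% of all genes tested that were called, 0.218% higher and 1.26% lower. This share rested on single libraries: 183 genes were called in all, 436 (3.48%) without the first bleogen pB1 library, 109 without the second, 102 without the third, and 102 without the first untreated library, whereas the calls of MMP1 and MMP10 were kept each time. The median size of the log2 fold change was 0.22 over the 9 genes and 0.12 over all genes tested. Both treatments were compared with the same 3 untreated libraries.

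**Figure D1:**
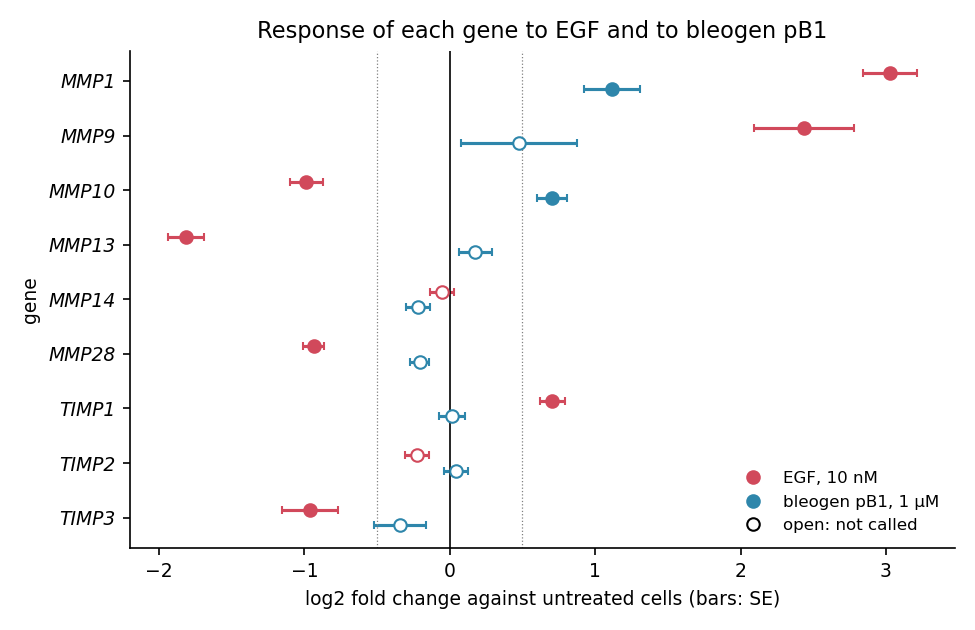
Log2 fold change against untreated cells (horizontal axis, bars are the SE) of the 9 genes tested, for EGF and bleogen pB1, with filled points for called genes and dotted lines at the fold limit of 0.5 in each direction. MMP1 is higher after both treatments (3.03 and 1.12), and MMP10 is lower after EGF (-0.99) and higher after bleogen pB1 (0.70).

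MMP1, interstitial collagenase, cuts fibrillar collagens and lies on chromosome 11 from 102789401 to 102798160 on the minus strand (GRCh38). It stood at 3.78, 3.45 and 3.09 FPKM in the untreated libraries, at 30.8, 22.4 and 27.5 FPKM after EGF and at 5.82, 10.1 and 6.82 FPKM after bleogen pB1. The 3 groups did not overlap, with every EGF-treated library above every bleogen pB1-treated one and these above every untreated one. EGF raised MMP1 8.17-fold (log2 fold change 3.03, SE 0.19, edgeR adjusted p = 3.8e-08), and bleogen pB1 raised it 2.17-fold (log2 fold change 1.12, SE 0.19, edgeR adjusted p = 0.0068). The difference between the 2 treatments was itself called (log2 fold change 1.91 for EGF against bleogen pB1, edgeR adjusted p = 1.4e-06). Of the 12394 genes tested, MMP1 ranked 49th in the log2 fold change after EGF and 32nd after bleogen pB1.

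The second bleogen pB1 library was the highest of its group for MMP1. Without it the log2 fold change was 0.85, and leaving out any 1 of the other libraries of the comparison gave values up to 1.27, with the call retained each time. With limma on log2(FPKM + 1), a scale that shrinks low values, it was 0.92 and the adjusted p was 0.051.

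MMP13, collagenase 3, also cuts fibrillar collagens and lies in the same cluster, on chromosome 11 from 102942995 to 102955732. Its levels were 31.6, 35.3 and 32.3 FPKM in untreated, 6.92, 10.9 and 9.09 FPKM in EGF-treated and 35.1, 40.6 and 37.9 FPKM in bleogen pB1-treated libraries. All EGF-treated libraries were far below the others, and the untreated and bleogen pB1-treated ranges overlapped. EGF lowered MMP13 3.52-fold (log2 fold change -1.82, SE 0.12, edgeR adjusted p = 9.8e-08). After bleogen pB1 the log2 fold change was 0.18 with a 95% interval from -0.10 to 0.46 (edgeR adjusted p = 0.39). The treatments differed by -1.99 for EGF against bleogen pB1 (edgeR adjusted p = 6e-08).

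The 2 collagenase transcripts thus went in opposite directions under EGF while their sum moved little. This sum was looked at after the values of the single genes had been seen and was not tested. MMP1 and MMP13 together came to 36.5 ± 1.94 FPKM in untreated, 35.9 ± 2.29 FPKM after EGF and 45.5 ± 4.94 FPKM after bleogen pB1. MMP1 made up 10.7%, 8.91% and 8.74% of the sum in the untreated libraries. It made up 81.6%, 67.1% and 75.2% of it after EGF, and 14.2%, 19.9% and 15.2% after bleogen pB1. Of these 2 transcripts, MMP13 was the larger in all 6 untreated and bleogen pB1-treated libraries and MMP1 in all 3 EGF-treated ones. MMP14, which also cuts collagen, is not part of this sum and stood above it in every group. Its level was 77.1 FPKM in untreated, 71.1 FPKM after EGF and 67.2 FPKM after bleogen pB1.

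MMP10, stromelysin 2, cuts a broad range of matrix proteins and can activate other MMP precursors, and it lies on chromosome 11 from 102770502 to 102780628. It was the only one of the 9 genes that was called after both treatments with opposite signs. Its levels were 7.15, 7.53 and 6.12 FPKM in untreated, 3.41, 3.22 and 3.38 FPKM in EGF-treated and 11.69, 11.69 and 11.01 FPKM in bleogen pB1-treated libraries. The 3 groups were separate, EGF lowest and bleogen pB1 highest.

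EGF lowered MMP10 1.98-fold (log2 fold change -0.99, SE 0.11, edgeR adjusted p = 7.1e-06). Bleogen pB1 raised it 1.63-fold (log2 fold change 0.70, SE 0.10, edgeR adjusted p = 0.0019). Set directly against bleogen pB1, EGF gave a log2 value of -1.69 (SE 0.11, edgeR adjusted p = 8.2e-08). Over all alternatives of test, scaling, filter and libraries the log2 fold change ranged from -1.09 to -0.87 for EGF and from 0.62 to 0.77 for bleogen pB1.

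MMP3, stromelysin 1, was found only in the EGF-treated libraries, with 8, 2 and 4 counts, against 0 counts in each of the other 6 libraries. The EGF mean was at least 1.57-fold higher than the level of 3 counts in an untreated library and at least 1.61-fold higher than that in a bleogen pB1-treated one. These few counts did not pass the filter, so the main test gave no p for MMP3. In the 5 alternatives that kept it, the adjusted p for EGF against untreated lay between 0.0025 and 0.030 (edgeR, DESeq2 or limma). MMP3 was kept there only through its counts in the EGF-treated libraries, so these p-values are no support for a rise. The log2 fold change in these alternatives ranged from 0.16 to 5.30. The lowest value was below the fold limit, so MMP3 was not called in every one of them.

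MMP9, gelatinase B, cuts denatured collagen and basement membrane collagen and lies on chromosome 20 from 46008908 to 46016561. It had 15, 12 and 24 counts in the untreated, 54, 131 and 86 in the EGF-treated and 25, 27 and 21 in the bleogen pB1-treated libraries. The EGF-treated libraries were all above the rest but spread over more than a factor of 2 among themselves. EGF raised it 5.42-fold (log2 fold change 2.44, SE 0.35, edgeR adjusted p = 4.6e-05), to 1.87 ± 0.824 FPKM. After bleogen pB1 the log2 fold change was 0.47 with a 95% interval from -0.50 to 1.45 (edgeR adjusted p = 0.52), a wide interval at these low counts. On the log2(FPKM + 1) scale, which understates changes of low genes, the EGF value was 1.04.

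MMP14, a membrane-type MMP that cuts collagen at the cell surface and activates MMP2 and MMP13 precursors, was the most abundant of the 7 MMP transcripts in every group. It stood at 79.7, 77.8 and 73.9 FPKM in untreated, 76.8, 67.3 and 69.2 FPKM in EGF-treated and 74.4, 58.7 and 68.4 FPKM in bleogen pB1-treated libraries. The ranges of all 3 groups overlapped. The log2 fold change was -0.055 for EGF (95% interval -0.26 to 0.15, edgeR adjusted p = 0.58) and -0.22 for bleogen pB1 (95% interval -0.42 to -0.012, edgeR adjusted p = 0.15). Unlike the p-values, the intervals are not adjusted for the number of genes tested. MMP14 made up 49.0% of the summed MMP level in untreated, 53.8% after EGF and 42.9% after bleogen pB1.

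MMP28, epilysin, is an MMP of the epidermis and lies on chromosome 17 from 35756249 to 35795707. Its levels were 37.1, 36.5 and 35.9 FPKM in untreated, 21.6, 18.5 and 19.2 FPKM in EGF-treated and 32.5, 30.4 and 32.5 FPKM in bleogen pB1-treated libraries. The 3 groups did not overlap, and both treatments lay below the untreated cells. EGF lowered MMP28 1.91-fold (log2 fold change -0.94, SE 0.070, edgeR adjusted p = 2.2e-07). For bleogen pB1 the log2 fold change was -0.21 (95% interval -0.38 to -0.040, edgeR adjusted p = 0.10), which did not pass the test. EGF against bleogen pB1 gave -0.73 (edgeR adjusted p = 2.9e-06).

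Among the inhibitors, TIMP1, a secreted TIMP, lies on chromosome X from 47582408 to 47586789. It stood at 140, 154 and 125 FPKM in untreated, 230, 213 and 205 FPKM in EGF-treated and 159, 134 and 140 FPKM in bleogen pB1-treated libraries. Every EGF-treated library was above all the others, and the untreated and bleogen pB1-treated libraries overlapped. EGF raised TIMP1 1.63-fold (log2 fold change 0.71, SE 0.087, edgeR adjusted p = 1.4e-05), and the log2 fold change after bleogen pB1 was 0.016 (95% interval -0.20 to 0.23, edgeR adjusted p = 0.93). The treatments differed by 0.69 (edgeR adjusted p = 2.6e-05). TIMP1 lies within SYN1 on the opposite strand, which had 136 to 439 counts per library, and whether counting used the strand is not stated in the sources used here. The same limit holds for MMP1, MMP3 and MMP10, which overlap the transcribed pseudogene WTAPP1 on the opposite strand. WTAPP1 was not listed in any library. MMP9, MMP28, TIMP2 and TIMP3 also overlap genes on the opposite strand.

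TIMP2, which takes part in the activation of MMP2 by MMP14 as well as in inhibition, stood at 22.1, 23.1 and 21.2 FPKM in untreated, 16.9, 19.8 and 17.7 FPKM in EGF-treated and 25.8, 21.3 and 22.3 FPKM in bleogen pB1-treated libraries. The EGF-treated libraries were all lower than the rest, by a small margin. The log2 fold change after EGF was -0.23 (95% interval -0.43 to -0.023, edgeR adjusted p = 0.028), below the fold limit, so TIMP2 was not called. After bleogen pB1 it was 0.046 (95% interval -0.16 to 0.25, edgeR adjusted p = 0.79).

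TIMP3, which is bound to the matrix, was the least abundant of these 3 inhibitors, with 101, 80 and 78 counts in untreated, 44, 35 and 51 in EGF-treated and 62, 73 and 75 in bleogen pB1-treated libraries. The groups were separate in counts, with EGF lowest and untreated highest. EGF lowered it 1.95-fold (log2 fold change -0.96, SE 0.19, edgeR adjusted p = 0.00062), and the log2 fold change after bleogen pB1 was -0.34 (95% interval -0.78 to 0.10, edgeR adjusted p = 0.28). The difference between the treatments was -0.62 (edgeR adjusted p = 0.015) and rested on single libraries. It was -0.49 (adjusted p = 0.065) without the second EGF library and -0.56 (adjusted p = 0.057) without the third bleogen pB1 library, both with edgeR, and DESeq2 on the 6 libraries compared gave an adjusted p of 0.078.

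In the direct comparison of EGF with bleogen pB1, 7 of the 9 genes were called, 3 higher after EGF (MMP1, MMP9 and TIMP1) and 4 lower (MMP10, MMP13, MMP28 and TIMP3). Over all genes tested 28.8% were called, 10.8% higher and 18.0% lower. MMP14 was not called, at 0.16 (95% interval -0.044 to 0.37, edgeR adjusted p = 0.12), and neither was TIMP2, at -0.27 (95% interval -0.48 to -0.069, edgeR adjusted p = 0.013). As the doses differed, this is a difference between 10 nM EGF and 1 µM bleogen pB1 and not between the agonists at one dose.

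Summed over the 7 MMP genes, the level was 157 ± 4.93 FPKM in untreated, 132 ± 8.06 FPKM after EGF and 156 ± 4.05 FPKM after bleogen pB1. The 3 TIMP genes summed to 163 ± 15.5, 235 ± 12.3 and 168 ± 15.1 FPKM in the same order, of which TIMP1 was 85.9%, 92.1% and 85.9%. The ratio of the MMP sum to the TIMP sum was 0.973 ± 0.0650 in untreated, 0.563 ± 0.0235 after EGF and 0.935 ± 0.0604 after bleogen pB1. All 3 EGF-treated libraries had a lower ratio than any other library, and no test is given for a sum over chosen genes. The sums are of transcripts and hold mainly MMP14 and TIMP1. They leave out MMP2, which was not among the 7 genes and is named here only for its level. It stood at 46.8 ± 3.31 FPKM in untreated, 40.3 ± 1.70 after EGF and 46.8 ± 4.74 after bleogen pB1. In each group this was above every one of the 7 except MMP14. The size of the ratio, and which sum is the larger, thus depend on the genes chosen. Without MMP14 and MMP28 the ratio was 0.270, 0.176 and 0.345, still lowest after EGF and now highest after bleogen pB1.

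MMP1, MMP3, MMP10 and MMP13 belong to a cluster of 9 MMP genes that spans 435 kb of chromosome 11, all on the minus strand. In the order of their coordinates they are MMP7, MMP20, MMP27, MMP8, MMP10, MMP1, MMP3, MMP12 and MMP13. After EGF the log2 fold changes of the 5 genes tested were 0.61 for MMP7, -0.99 for MMP10, 3.03 for MMP1, -3.55 for MMP12 and -1.82 for MMP13, and all 5 were called, MMP7 with overlapping groups and a call that single libraries decided. The neighbours MMP10 and MMP1 moved in opposite directions. After bleogen pB1 the values were 0.069, 0.70, 1.12, 0.11 and 0.18 in the same order, and the 2 called genes were the neighbours MMP10 and MMP1. MMP20, MMP27 and MMP8 had at most 5 counts in any library.

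Of 17 further MMP and TIMP genes, 11 were tested. EGF raised 3 and lowered 3 of the 11, against 15.1% higher and 21.8% lower over all genes tested. Of these 6, TIMP4, MMP23B and MMP11 had at most 20 counts in any library and are named after their values were seen. TIMP4 and MMP23B passed the filter only through the EGF group, where they were higher. MMP11, with at most 4 counts in an EGF-treated library, passed only through libraries of the other groups, where it was higher. The counts of rises and falls are thus no support for a direction. MMP12, the macrophage metalloelastase, fell by 3.55 in its log2 value (SE 0.25, edgeR adjusted p = 1.5e-07), from 6.41, 8.40 and 6.88 CPM to 0.800, 0.655 and 0.385 CPM. MMP15, a membrane-type MMP, fell by 1.69 (SE 0.14, edgeR adjusted p = 5.1e-07), and MMP7, matrilysin, rose by 0.61 in its log2 value (SE 0.23, edgeR adjusted p = 0.034). The MMP7 libraries overlapped, with 6.55, 13.7 and 11.6 CPM after EGF against 5.69, 8.69 and 6.45 CPM untreated. Its call was lost without the second EGF (0.39), the third EGF (0.54), the first untreated (0.48) or the third untreated library (0.56), and with upper-quartile or no scaling factors, edgeR on the 6 libraries compared or limma. Without the third EGF library 3 of these genes were called in place of 6. Bleogen pB1 changed 0 of the 11 in the edgeR test, with 2 lower at an unadjusted p under 0.05 and 0 called by DESeq2 or limma. Without its first library, 1 was called lower.

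Among 20 genes for activators, inhibitors and binding partners of MMPs, 17 were tested. EGF raised 8 and lowered 6 of the 17, against 15.1% higher and 21.8% lower over all genes tested. PRSS3, a trypsinogen, rose by 2.57 (SE 0.22), PLAUR, the urokinase receptor, by 2.35 (SE 0.10), and TFPI2, an inhibitor of plasmin and related proteases, by 2.18 (SE 0.11) on the log2 scale. PLAT, tissue plasminogen activator, fell by 1.33 (SE 0.11), the lysosomal protease CTSB fell by 1.07 (SE 0.071), and the proprotein convertase PCSK5 fell by 1.03 (SE 0.11). Bleogen pB1 raised 1 of the 17, PLAUR (log2 fold change 0.64, SE 0.10, edgeR adjusted p = 0.0029), from 13.1, 12.7 and 12.4 CPM to 19.6, 21.4 and 18.4 CPM. PLAUR and MMP1 were thus higher after both treatments.

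All 14 genes for AP-1, ETS and RUNX factors that are known to bind MMP promoters were tested. EGF raised 6 and lowered 3 of the 14, against 15.1% higher and 21.8% lower over all genes tested. FOSL1, the AP-1 subunit Fra-1, rose by 3.50 (SE 0.13), and the ETS factors ETV4 and ETV5 rose by 1.60 (SE 0.069) and 1.49 (SE 0.093) on the log2 scale. The AP-1 subunits JUND, FOSL2 and FOS fell by 1.59 (SE 0.15), 0.74 (SE 0.089) and 0.53 (SE 0.19). The call of FOS was lost without the first untreated (-0.54), the second untreated (-0.46) or the second EGF library (-0.34), and with limma on log2(FPKM + 1) or DESeq2 on the 6 libraries compared. Bleogen pB1 lowered 1 of the 14, RUNX2 (log2 fold change -0.75, SE 0.10, edgeR adjusted p = 0.0015), which with limma on log2(FPKM + 1) was -0.47 and below the fold limit. It raised 0 by edgeR, DESeq2 or limma, with 1 higher at an unadjusted p under 0.05 in edgeR. FOSL1 stood at 38.3, 38.7 and 40.1 CPM in untreated and 41.0, 65.7 and 57.9 CPM in bleogen pB1-treated libraries, with a log2 fold change of 0.49 (edgeR adjusted p = 0.053) that did not pass the test. The second bleogen pB1 library was the highest of its group for both FOSL1 and MMP1, and a link between the 2 genes was not tested. This list, the activators and inhibitors, and the matrix proteins below were also counted together. Without the first bleogen pB1 library, 4 of these genes were called in place of 2.

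Of 16 matrix proteins, most of them substrates of MMPs, 14 genes were tested. EGF raised 5 and lowered 4 of the 14, against 15.1% higher and 21.8% lower over all genes tested. ECM1, a secreted matrix glycoprotein, rose by 2.54 (SE 0.077), and LAMA3, a laminin chain, rose by 2.00 (SE 0.064) on the log2 scale. COL3A1, a fibrillar collagen, fell by 2.98 (SE 0.26), HSPG2, perlecan, fell by 0.89 (SE 0.091), and TNC, tenascin-C, fell by 0.73 (SE 0.072). Bleogen pB1 changed 0 of the 14 in the edgeR test, with 4 at an unadjusted p under 0.05, and DESeq2 and limma called 0.

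In the direct comparison of EGF with bleogen pB1, the genes called higher and lower after EGF were 1 and 3 of the 11 further MMP and TIMP genes. They were 7 and 6 of the 17 activators, inhibitors and partners, 7 and 2 of the 14 factors, and 5 and 4 of the 14 matrix proteins. The shares over all genes tested were 10.8% higher and 18.0% lower.

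The genes whose log2 CPM across the 9 libraries, relative to the untreated mean, lay nearest to MMP1 were CCNA1, NFATC2 and ANXA10, at Euclidean distances of 0.586, 1.13 and 1.14. CCNA1, cyclin A1, had a log2 fold change of 3.10 after EGF and 1.14 after bleogen pB1, close to the 3.03 and 1.12 of MMP1. Nearest to TIMP3, which had the largest change under EGF of the 3 TIMP members, were MFSD14C, ZNF613 and MPPE1, at distances of 0.329, 0.375 and 0.377. Their log2 fold changes after EGF lay between -1.07 and -0.94. Both sets were picked for closeness in these same libraries among 12394 genes, so the likeness of the fold changes follows from the choice.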

How the data were processed

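RNA from 9 HaCaT libraries was sequenced for the authors by BGI and mapped to GRCh38.p12; the counting program and its version are not given in the sources used here. Per gene and library, the authors deposited an expected count (an unscaled estimate of fragments). The deposited FPKM is this count scaled for effective gene length and library size. A gene without an entry in a library was taken as 0. Groups came from the deposited sample labels, which do not state that replicates were separate cultures, so p-values measure the spread between these libraries.

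The test was edgeR 4.0.16 (R 4.3.3) on rounded expected counts (filterByExpr, TMM, glmQLFit, glmQLFTest, all 9 libraries in one fit with 6 residual degrees of freedom, Benjamini-Hochberg adjustment over 12394 genes). Standard errors came from the F statistic, as the size of the log2 fold change over its square root, and 95% intervals used 6 degrees of freedom. CPM used TMM-scaled library sizes. The alternatives were DESeq2 1.42.0, limma 3.58.1 on log2(FPKM + 1) or log2(FPKM + 0.1), other scaling, filters and fold limits, a replicate block and each library left out. Scripts were tested on simulated data. Coordinates are those of GENCODE 44. No 2 libraries of a group agreed within sampling noise (chi-square per gene of at least 3.82 between replicates). This value was highest between the first and second EGF libraries (20.2) and between the first and second bleogen pB1 libraries (20.5).

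The genes described and all gene lists were chosen with earlier results of these data known. The text names all 10 members and, per list, at most 3 rises and 3 falls of the largest size among called genes with at least 50 counts on average, plus the 3 genes nearest in pattern to MMP1 and to the TIMP member with the largest change under EGF. Of the genes that meet this rule, 1 is not reported here by name and stays in the fits and list counts.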

Additional observations from a re-analysis of the deposited data

How the results depend on the processing

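Each of the 7, 2 and 7 calls among the 9 genes tested (EGF against untreated, bleogen pB1 against untreated and EGF against bleogen pB1) was recomputed under every alternative listed with the methods. With a fold limit of 1 on the log2 scale the counts were 3, 1 and 4, and with limma on log2(FPKM + 1) the bleogen pB1 count was 1. With single libraries left out they were 7 in every case for EGF, 2 in every case for bleogen pB1 and 6 to 7 for the direct comparison. For bleogen pB1 against untreated, leaving out single libraries gave -0.062 to 0.0995 for the log2 fold change of TIMP1 and -0.043 to 0.10 for that of TIMP2; the sign turned without the third untreated (TIMP1) or the first bleogen pB1 library (both genes), and neither was called in any setting. TIMP3 was below the fold limit with limma on log2(FPKM + 1), at -0.37 after EGF and -0.23 for EGF against bleogen pB1. In these cases the cause was not tested. The ratio of the MMP sum to the TIMP sum without MMP14 and MMP28 was 0.270, 0.176 and 0.345 in untreated, EGF-treated and bleogen pB1-treated cells.

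With the replicate block the calls were again 7, 2 and 7 among the 9 genes, and 4560, 186 and 3550 in place of 4578, 183 and 3564 over all genes; it changed no call of a member. The labels give the samples a shared number and no other pairing. The correlations of same-numbered deviations averaged 0.028 for untreated and EGF, 0.096 for untreated and bleogen pB1 and 0.040 for EGF and bleogen pB1. Those of different numbers averaged -0.014, -0.049 and -0.020 in the same order. With 3 libraries per group these values cannot decide whether same-numbered libraries were handled together. Upper-quartile factors moved the median log2 fold change of all genes under EGF to -0.12, from -0.013 with TMM, without turning the direction of a called member. Depth limits MMP3 and MMP9, whose counts were the lowest.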

Other observations

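The deposited length of MMP28, an average over its transcripts in each library, was 2230, 2295 and 2246 bases in the untreated, 2059, 2049 and 2147 bases in the EGF-treated and 2263, 2256 and 2301 bases in the bleogen pB1-treated libraries. The EGF-treated values lay below all the others. This was noticed after the values were seen and was not tested. Lengths enter the FPKM values but not the test of counts, in which MMP28 fell by 0.94 on the log2 scale after EGF.

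The second EGF library had the lowest MMP1 (924 counts) and the highest MMP13 (599) and MMP9 (131) counts of its group, and the first had the highest MMP1 (1285) and the lowest MMP13 (383) and MMP9 (54) counts. The third lay between them for all 3 genes. MMP7, with 131, 271 and 240 counts in the EGF-treated libraries, was also lowest in the first and highest in the second.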
